A study of Homo sapiens with 8 samples.

Results

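The 7 genes described here encode replacement histones whose mRNAs carry a poly(A) tail: H3-3A and H3-3B, H2AZ1 and H2AZ2, MACROH2A1 and MACROH2A2, and H1-10. They were chosen by name, and their members were all poly(A) peaks that overlapped the annotated span of a gene or the 4 kb after its 3′ end. This rule gave 41 of the 153624 peaks in the list, and 16 of the 41 were 3′ UTR sites. A 3′ UTR site is a peak whose 3′ end, read on the strand of the gene, lay in an annotated 3′ UTR or at most 600 bp after the end of a coding transcript.

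The study sequenced the 3′ ends of polyadenylated RNA in Kelly cells, a human MYCN-amplified neuroblastoma line, and in Kelly E9R cells, a Kelly derivative with a point mutation in CDK12 at the cysteine that THZ531 binds. Cells received THZ531 (400 nM), a covalent inhibitor of the kinases CDK12 and CDK13, or the solvent DMSO for 6 h, which gave 4 groups of 2 libraries: Kelly with DMSO, Kelly with THZ531, Kelly E9R with DMSO and Kelly E9R with THZ531. Kelly E9R cells were obtained from Kelly cells by selection with another inhibitor, so that both lines come from 1 tumour. The values analysed here are 1 list of peaks that the authors called after merging the reads from the 8 libraries, so that no value has a replicate, depth per library is unknown, and neither THZ531 and DMSO nor the lines could be compared.

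Most histone mRNAs of dividing cells come from the replication-dependent clusters, end in a stem-loop instead of a poly(A) tail, and are made during S phase. Replacement histones are made throughout the cell cycle from genes that lie outside the clusters, and most of these genes have introns. Their mRNAs are cleaved after a polyadenylation signal (PAS, most often AATAAA or ATTAAA) and receive a poly(A) tail. H3.3, encoded by H3-3A and H3-3B, is placed into transcribed genes and, by another chaperone complex, at telomeres and pericentric repeats. H2A.Z, encoded by H2AZ1 and H2AZ2, marks promoters, macroH2A carries a large extra domain and is known from the inactive X chromosome, and H1-10 is a linker histone. CDK12 phosphorylates the tail of RNA polymerase II, and its loss is known for the use of poly(A) sites inside introns.

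The last 30 bases of the MANE Select transcript, the reference transcript of each gene, are given here for all 7 genes because they hold the signal of the annotated end. Each is written 5′ to 3′ on the strand of the gene (GRCh38), with the PAS motif in capitals.
H3-3A, chr1:226071990-226072019 (+): acATTAAActatacctgcttttggtcttta
H3-3B, chr17:75776434-75776463 (−): atgagactaaAATAAAatttttgaagttaa
H2AZ1, chr4:99948088-99948117 (−): ggataagttcAATAAAggtcatatcccaaa
H2AZ2, chr7:44831978-44832007 (−): tatgttcTATAAActgacagatctagaggg
MACROH2A1, chr5:135334381-135334410 (−): tgagttgatttAGTAAAatgttaaaccgtt
MACROH2A2, chr10:70112253-70112282 (+): AATAAAagatccagtgtctttcttacaaca
H1-10, chr3:129314771-129314800 (−): ttgggcacAATAAAgcgtttaaacctttca
Of the 7 ends, 4 had AATAAA, H3-3A had ATTAAA, and H2AZ2 and MACROH2A1 had the variants TATAAA and AGTAAA. The motif began between 19 bp (MACROH2A1) and 30 bp (MACROH2A2) before the end.

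The 7 genes differed in how many 3′ UTR sites they had. H3-3B and MACROH2A1 had 4 each, H2AZ2 had 3, H3-3A had 2, and H2AZ1, MACROH2A2 and H1-10 had 1 each. All 7 genes therefore had at least 1 site, compared with 67.7% of the 19342 protein-coding genes. At least 2 sites were found in 4 of the 7 genes (57.1%), close to the 59.5% of the 13097 coding genes that had a site. The median was 2 sites per gene in the 7 genes and in all coding genes. Each of the 3 pairs of related genes was unequal: 2 against 4 sites for the H3.3 genes, 1 against 3 for the H2A.Z genes and 4 against 1 for the macroH2A genes. With the 3′ UTR of the MANE Select transcript alone, H2AZ2 had 1 site, equal to H2AZ1, MACROH2A1 had 2 against 1 in MACROH2A2, and the H3.3 genes kept 2 and 4.

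Coding genes with longer annotated 3′ UTRs had more sites. Among coding genes with a site, at least 2 sites were found in 13.9% of genes with up to 500 bp of 3′ UTR, in 38.1% of those between 500 and 1000 bp, in 66.9% between 1000 and 2500 bp and in 91.9% above 5000 bp. H2AZ1 (374 bp) and H1-10 (490 bp) had the shortest 3′ UTRs of the 7 genes, and each had 1 site. MACROH2A1 (804 bp over all its coding transcripts) and MACROH2A2 (799 bp) had 3′ UTRs of nearly the same annotated length but 4 sites and 1 site. Over all coding transcripts, H3-3A (1966 bp) and H3-3B (2282 bp) were also alike in length, but their MANE Select 3′ UTRs measured 540 and 2161 bp. H2AZ2, with 6492 bp over all coding transcripts, had fewer sites per kb (0.46) than the other 6 genes. MACROH2A1 had the highest value, 4.98 sites per kb, against a median of 1.20 over coding genes with a site. Sites up to 600 bp after a coding end were counted, but the length was that of the annotated 3′ UTR alone. This raises the value of genes with short 3′ UTRs. The median was 17.5 in replication-dependent histone genes with a site, whose median 3′ UTR was 58 bp. The weakest MACROH2A1 site (7 reads, −log10 q of 3.27) lay outside the annotated 3′ UTR. Another lay next to a run of 10 A and had no PAS motif.

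**Figure D1:**
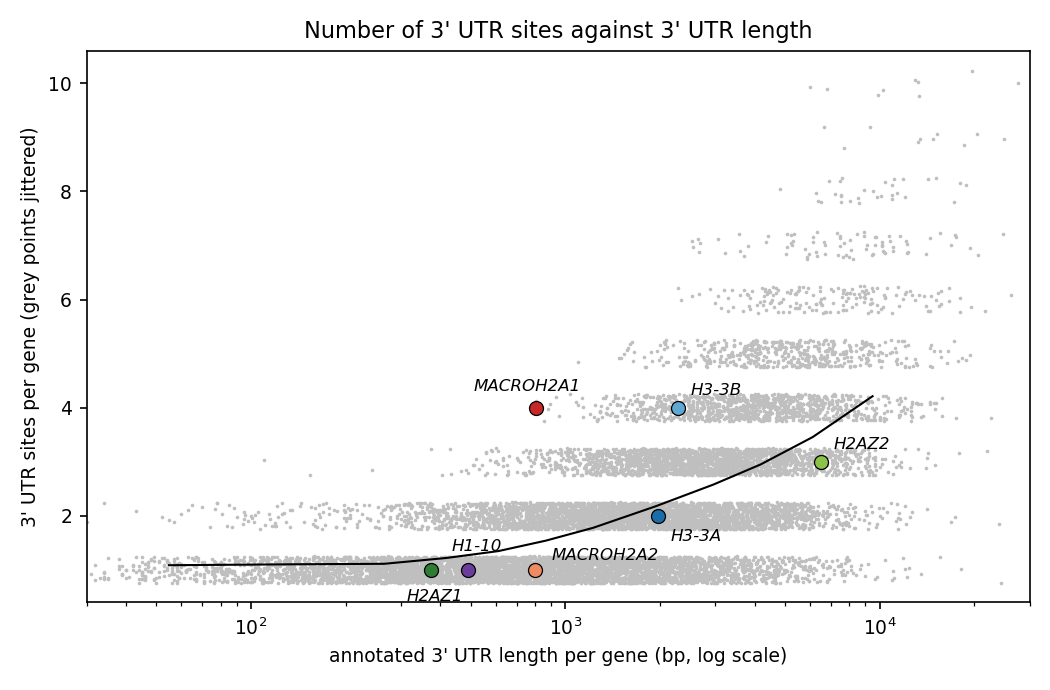
The number of 3′ UTR sites per gene (vertical axis) is plotted against annotated 3′ UTR length in bp (horizontal axis, log scale) for coding genes with a site (grey, spread vertically for visibility), with the 7 replacement histone genes as coloured points and the mean of length bins as a black line. MACROH2A1, with 4 sites and 804 bp of annotated 3′ UTR, lies above the line. Its weakest site lies outside the annotated 3′ UTR. H2AZ2, with 3 sites and 6492 bp, lies below the line.

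For each site, the pileup (the number of extended reads over the highest point of the peak) and the local background were recovered from the deposited fold enrichment, which is the ratio of the pileup plus 1 to the background plus 1. The highest pileup of the whole list was 200 reads, on the mitochondrial chromosome, and reads were extended to 100 bp, so that 1 read per position and strand would give the same ceiling. How duplicate reads were handled is not stated in the sources used here, and pileups are therefore given as peak heights and not as expression levels. The strongest site had a pileup of 73 reads in H3-3B, 71 in H2AZ1, 54 in MACROH2A1, 54 in MACROH2A2, 50 in H1-10, 48 in H2AZ2 and 36 in H3-3A. All 7 values lay above the median of the strongest sites of coding genes, which was 23 reads. Fold enrichment gave another order, from 24.4 in MACROH2A1 and 22.9 in H2AZ1 down to 10.9 in H2AZ2, since the local background ranged from 1.25 reads at MACROH2A1 to 5.44 reads at H3-3B.

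H3-3A (ENSG00000163041.13, chr1:226061851-226072019, forward strand) encodes H3.3. It had 2 peaks, both in its last exon, and no intronic peak. The distal peak (chr1:226071906-226072042, 137 bp wide) reached 23 bp past the MANE Select end and covered 3 annotated ends, with a pileup of 32 reads, a fold enrichment of 11.3 and a −log10 q of 24.6. The nearer ATTAAA began 51 bp before its 3′ end. The proximal peak (chr1:226071389-226071521, 133 bp) was of similar height, with a pileup of 36 reads and a fold of 12.8. It ended 42 bp after the stop codon, 521 bp before the distal 3′ end and exactly at the annotated end of the transcript H3-3A-209. The pileups of 32 and 36 reads were within each other's counting error. The alternative end of H3-3A-202, 4750 bp before the gene end, had no peak.

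None of the 12 PAS motifs searched lay in the 100 bp before the 3′ end of the proximal H3-3A peak, which also held for 4 of the other 15 sites. The 3′ end fell inside a run of 17 A in the genome. The 30 bases on either side are given because oligo(dT) can also prime on such a run; A of the genome after the 3′ end are in capitals.
before the 3′ end, chr1:226071492-226071521 (+): atgggaaacatttcattctcaaaaaaaaaa
after the 3′ end, chr1:226071522-226071551 (+): AAAAAAAtttctcttcttcctgttattggt
The 75 bases before this 3′ end, the shortest read length kept by the authors, occurred 4 times in the genome, whereas those of the other 15 sites occurred once. The further copies lay in the processed pseudogenes H3P6 (chromosome 2), H3P36 (chromosome 13) and H3P47 (chromosome X). A peak covered the H3P6 copy with a pileup of 48 reads and a fold of 21.3, and the H3P47 copy with 11 reads and a fold of 7.89; the H3P36 copy had none. The copy in H3P6 ended in a run of 16 A and that in H3P47 in a run of 15 A. Reads with several places in the genome were kept by the authors, so the share of the proximal peak that came from H3-3A itself cannot be told apart from that of the copies. The part of internal priming in this peak was not tested.

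H3-3B (ENSG00000132475.10, chr17:75776434-75785893, reverse strand) encodes the same H3.3 protein from a coding sequence that is identical to that of H3-3A at 78.4% of its 408 positions. The 3′ UTRs of the 2 genes share no run longer than 13 bases. All 4 H3-3B peaks lay in a single 3′ UTR, 95, 702, 1384 and 2170 bp after the stop codon, and the gene had no intronic peak. Their pileups were 43, 45, 73 and 36 reads and their folds 6.81, 7.13, 11.5 and 5.63, from the proximal to the distal site. The third site was the highest: its exact 95% Poisson interval of 57.2 to 91.8 reads, which covers counting error only, overlapped slightly with those of the first (31.1 to 57.9 reads) and the second (32.8 to 60.2 reads), and not with that of the most distal one (25.2 to 49.8 reads). The other 3 pileups were within each other's intervals. These intervals treat a pileup as a plain read count, which may not hold because duplicate handling is not stated.

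The 4 H3-3B sites also differed in width and signal. The distal peak was narrow (chr17:75776425-75776539, 115 bp) and ended 9 bp after the MANE Select end, with AATAAA 29 bp before its 3′ end. The highest peak was 532 bp wide (chr17:75777211-75777742) and covered no annotated end of a coding transcript; an AATAAA lay inside it, 267 bp before its 3′ end. The next peak upstream (466 bp) covered the ends of H3-3B-210 and H3-3B-212 and held an AATAAA and an ATTAAA. The variant AGTAAA lay 47 bp before its 3′ end. The most proximal peak (145 bp) overlapped the stop codon and covered the ends of 3 transcripts. The 30 bases from the motif onwards are given for the 2 wide peaks, because AATAAA and ATTAAA lay more than 100 bp from where these peaks ended.
highest peak, chr17:75777448-75777477 (−): AATAAActtgtttatccaactaagtgtcca
466 bp peak, chr17:75778242-75778271 (−): AATAAAactggttatgacttgatccaagtg
466 bp peak, chr17:75778012-75778041 (−): ATTAAAtgttttacattcacaagtggtggg
The local background at H3-3B was 5.44 to 5.57 reads, and 99.8% of coding genes had a lower background at their strongest site. A peak of the same height therefore had a smaller fold in H3-3B than in the other 6 genes.

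**Figure D2:**
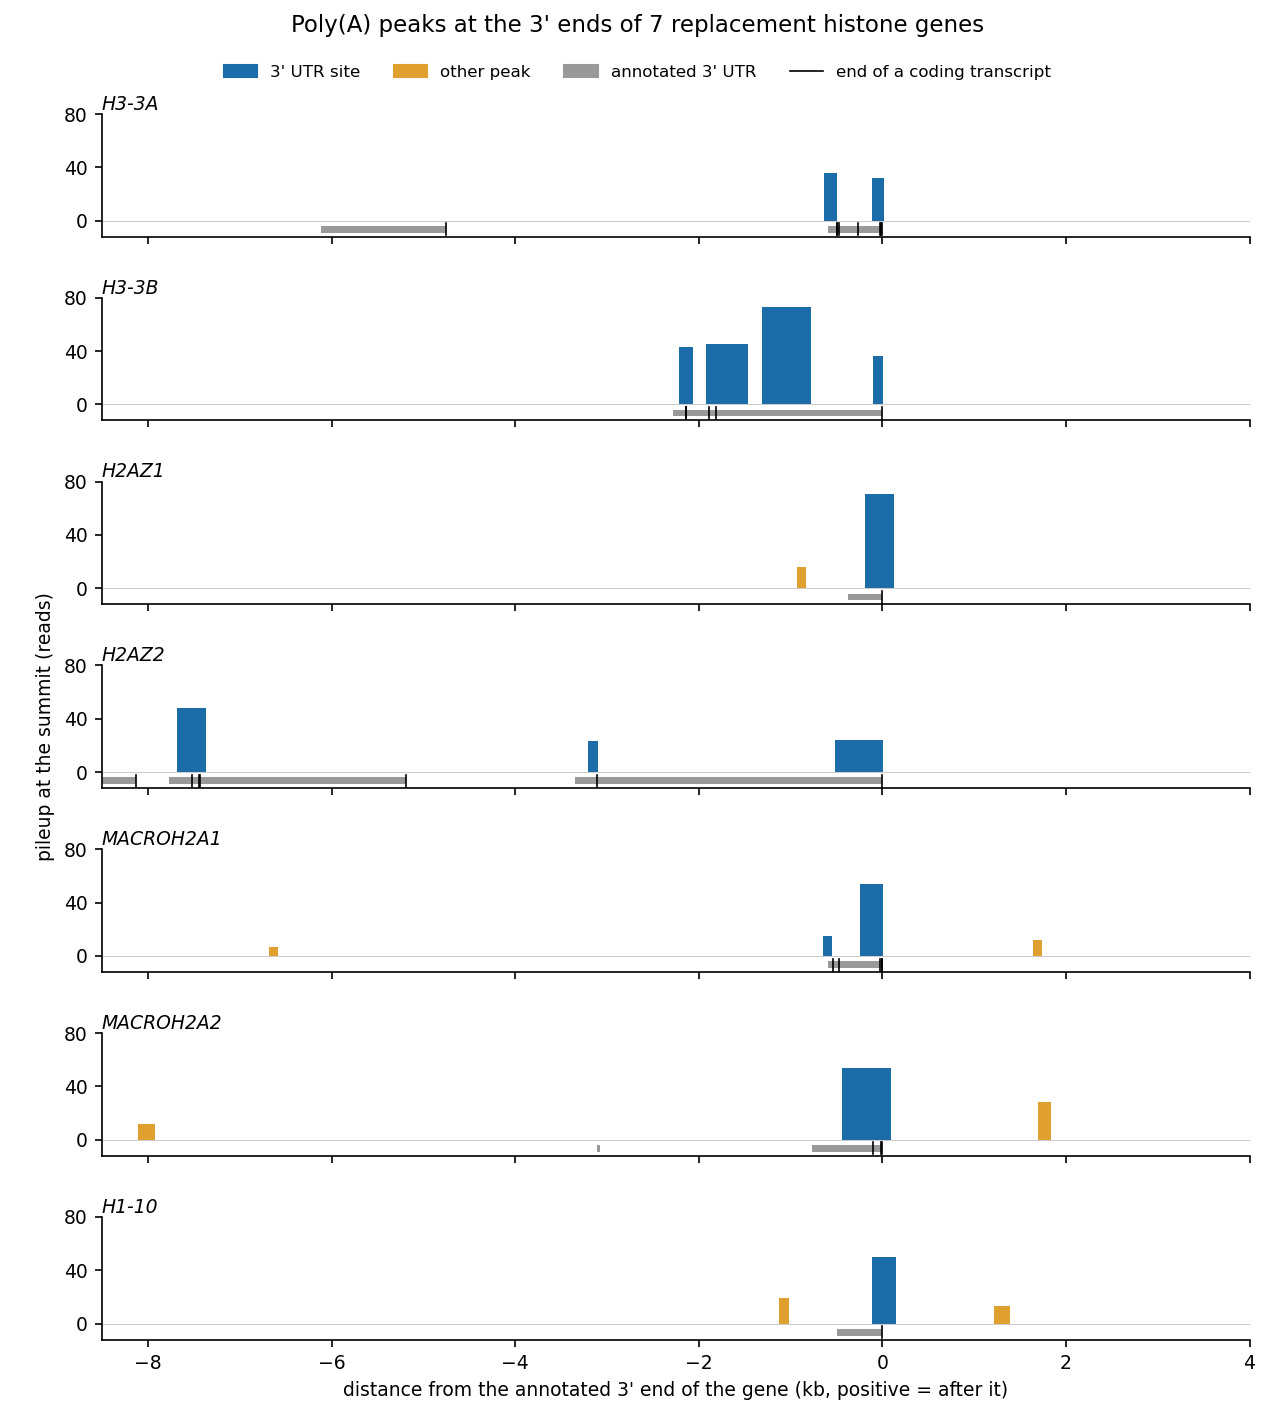
Peaks of the 7 genes are drawn as boxes to scale along the distance from the annotated gene end in kb (horizontal axis, positive after the end), with the pileup at the summit in reads as height, annotated 3′ UTRs in grey and ends of coding transcripts as black ticks. H3-3B carries 4 sites in a single 3′ UTR, H2AZ2 has 3 sites spread over 7.4 kb, and H2AZ1, MACROH2A2 and H1-10 have 1 site each that reaches past the annotated end.

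H2AZ1 (ENSG00000164032.12, chr4:99948086-99950355, reverse strand) encodes one of the H2A.Z proteins. It had a single 3′ UTR site (chr4:99947955-99948275), which was 321 bp wide, with a pileup of 71 reads and a fold of 22.9. The peak reached 133 bp past the annotated end. AATAAA lay 153 bp and ATTAAA 123 bp before its 3′ end, and none of the 12 motifs lay in the last 100 bp. A further, weaker peak (16 reads, 5.41-fold) lay over an exon 830 bp upstream of the gene end.

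H2AZ2 (ENSG00000105968.19, chr7:44826791-44848087, reverse strand) encodes the other H2A.Z protein, from a coding sequence identical to that of H2AZ1 at 80.5% of 384 positions. Its 3 sites lay in 2 alternative last exons. The strongest (chr7:44834163-44834473, 48 reads, 10.9-fold) ended 338 bp after the stop codon of the MANE Select transcript and covered the ends of H2AZ2-203, H2AZ2-204, H2AZ2-205 and H2AZ2-208. The other two lay in the last exon of H2AZ2-201, the first of them 4279 bp further downstream and the second another 3098 bp after it. One of them (chr7:44829884-44829991, 23 reads, 4.68-fold) ended 13 bp after the end of H2AZ2-206, and the other (chr7:44826786-44827309, 24 reads, 7.33-fold) ended 5 bp after the end of H2AZ2-201. No peak lay at the MANE Select end itself, and the nearest 3′ end of a peak was 2094 bp away. For each of the 2 distal sites, the motif nearest the 3′ end of the peak is shown for comparison with TATAAA at the MANE Select end.
H2AZ2-206 end, chr7:44829884-44829913 (−): tgaatgTATAAAatattctatttatgtttg
H2AZ2-201 end, chr7:44826786-44826815 (−): gaATTAAAtatattctgtgtaaaaagaggt
These motifs began 24 and 28 bp upstream of where the peaks ended. The peak at the H2AZ2-201 end was 524 bp wide, with its summit 254 bp before its 3′ end. It also held AATAAA 279 and 452 bp before its 3′ end. The strongest H2AZ2 site had GATAAA 90 bp before its 3′ end and was followed by A-rich sequence, that is, 6 A in a row or 7 of 10 within the next 50 bp. Its annotated transcript ends lay 65 to 147 bp upstream of that point. A single intronic peak of H2AZ2 (16 reads, 9.24-fold) ended at a run of 8 A.

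MACROH2A1 (ENSG00000113648.17, chr5:135334381-135399914, reverse strand) encodes macroH2A1. Its end site (chr5:135334378-135334624) had 54 reads and the highest fold of the 16 sites, 24.4, and ended 3 bp after the MANE Select end with AGTAAA 22 bp before its 3′ end. A proximal site in the same 3′ UTR (chr5:135334924-135335029, 15 reads, 7.11-fold) ended 52 bp after the stop codon, next to a run of 10 A in the genome and without a PAS motif. The other 2 sites lay 25045 and 25344 bp before the gene end, at an alternative last exon within an intron of the main transcript, where MACROH2A1-219 ends. The stronger of them (chr5:135359725-135359955, 18 reads, 10.3-fold) ended 3 bp before the end of that transcript, with ATTAAA 24 bp before its 3′ end. The weaker one (7 reads, 4.32-fold) ended 296 bp after it and had the lowest −log10 q of the 16 sites, 3.27. The sequences at the 3 better supported sites are given because they differ in signal: a variant motif, a genomic A run without a motif, and ATTAAA at the alternative exon.
end site, before the 3′ end, chr5:135334378-135334407 (−): gttgatttAGTAAAatgttaaaccgttgtt
proximal site, after the 3′ end, chr5:135334894-135334923 (−): gAAAAAAAAAAtccccttcactcctactgg
MACROH2A1-219 site, before the 3′ end, chr5:135359725-135359754 (−): taaagaATTAAAggaatgaatttgacgttc
The capitals in the second sequence mark the A run. The lncRNA gene PITX1-AS1 lies on the opposite strand and overlapped 6 of the 14 MACROH2A1 peaks, including both sites of the terminal 3′ UTR. Peaks carry no strand, so reads from the 2 genes cannot be told apart there.

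MACROH2A2 (ENSG00000099284.15, chr10:70052544-70112282, forward strand) encodes macroH2A2, from a coding sequence of the same length as that of MACROH2A1 (1116 bp) and 67.6% identical to it. In contrast to MACROH2A1 it had 1 site (chr10:70111844-70112375), which had the same pileup of 54 reads and was 532 bp wide. The peak covered all 3 annotated ends and reached 93 bp past the MANE Select end, and AATAAA began 123 bp before its 3′ end. The coding gene AIFM2 on the opposite strand overlapped this site, the peak 1836 bp after the gene end (28 reads, 9.80-fold) and 1 intronic peak. An end of an AIFM2 transcript also lay close enough for the site to fall in its window of 200 bp before to 600 bp after the end.

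H1-10 (ENSG00000184897.7, chr3:129314771-129316286, reverse strand) is the only one of the 7 genes without an intron. Its single site (chr3:129314624-129314881, 258 bp, 50 reads, 15.0-fold) reached 147 bp past the annotated end, and AATAAA lay 169 bp before its 3′ end. An exonic peak (19 reads, 5.78-fold) overlapped the antisense gene H1-10-AS1, and a peak 1387 bp after the gene end had 13 reads and a −log10 q of 4.48.

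Neighbouring sites within a 3′ UTR were a median of 607 bp apart (7 spacings, 299 to 3098 bp). Over all coding genes the median was 783 bp (13166 spacings, quartiles 446 and 1502 bp). The spacings were 521 bp in H3-3A, 607, 682 and 786 bp in H3-3B, and 546 and 299 bp in MACROH2A1. H2AZ2 stood apart from these with 3098 bp. The 4 sites of H3-3B were thus placed at similar intervals when measured between the 3′ ends of the peaks. Their summits lay 70, 390, 278 and 36 bp before these 3′ ends, from the proximal to the distal site, so the summits were not evenly spaced. The uncovered stretches between the H3-3B peaks were 141, 150 and 671 bp, because the 2 middle peaks were wide. Between exons, the sites of H2AZ2 were a further 4279 bp and those of MACROH2A1 24502 bp apart.

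**Figure D3:**
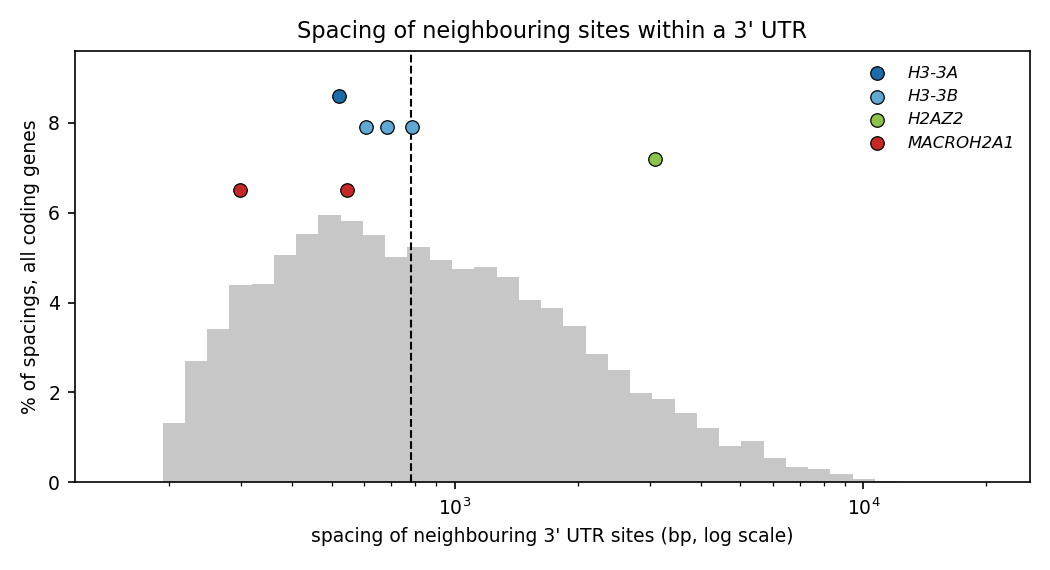
The spacing of neighbouring 3′ UTR sites (horizontal axis, bp, log scale) is shown as a histogram for all coding genes (vertical axis, % of 13166 spacings; dashed line, median of 783 bp), with the 7 spacings of the replacement histone genes as points on separate rows, whose height has no meaning. The points lie between 299 and 786 bp in 3 genes, and at 3098 bp in H2AZ2.

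The annotation gave 32 distinct ends of coding transcripts for the 7 genes, and 23 of them lay inside a peak. All 6 ends of H3-3B did so, as did 4 of 8 in H3-3A, 5 of 7 in H2AZ2 and 3 of 6 in MACROH2A1. Of the 16 sites, 12 covered at least 1 annotated end. No share over all coding genes is given beside these counts. Sites were defined by annotated 3′ UTRs and transcript ends, which favours such overlap. Peaks were wider than usual: 9 of 16 sites (56.3%) were at least 200 bp wide, compared with 27.0% of the 28221 sites of coding genes, and the median widths were 239 and 123 bp. The 16 sites were also higher, with a median pileup of 39.5 reads against 18 reads over the sites of all coding genes.

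The 12 PAS motifs searched were AATAAA and 11 hexamers that differ from it at 1 base. Changes at the first base gave TATAAA as well as the hexamers CATAAA and also GATAAA. Changes at the second base gave ATTAAA as well as the hexamers AGTAAA and also ACTAAA. The third base was changed in AAGAAA, the fourth base in the hexamer AATGAA, and the fifth base in AATATA as well as the hexamers AATACA and also AATAGA. At least 1 of the 12 motifs lay in the 100 bp before the 3′ end at 11 of the 16 sites (68.8%, 95% Wilson interval 44.4 to 85.8%). The share was 83.0% over all sites of coding genes. When the other strand of the same peaks was searched in the same way, it was 62.5% for the 7 genes and 58.7% for all coding genes. AATAAA or ATTAAA alone lay in this window at 4 of 16 sites (25%, interval 10.2 to 49.5%), against 63.2% of all sites, and on the other strand the shares were 25% for both. When the whole peak was searched, 9 of 16 sites (56.3%) held AATAAA or ATTAAA, as did 70.9% of all sites; on the other strand of the same peaks the shares were 56.3% and 37.6%. The share of the 7 genes was thus the same on both strands. Of the 9 sites of at least 200 bp, 7 held one of these motifs, but in 2 alone it lay in the last 100 bp. Which of these motifs were used was not tested. A-rich sequence followed 4 of the 16 sites (25%), near the 24.3% of all sites, and a stricter criterion, 22 A or more of 25 bases, was met at none.

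Intronic peaks were found in 3 of the 6 genes with introns (50%), compared with 79.3% of coding genes with a site and an intron. They were unevenly divided: H2AZ2 had 1, MACROH2A1 had 8 and MACROH2A2 had 10, and the shorter H3-3A, H3-3B and H2AZ1 had none. Per 100 kb of intron this came to 7.0 peaks in H2AZ2, 12.7 in MACROH2A1 and 17.4 in MACROH2A2, with 10.2 over all coding genes with a site. The introns of H3-3A, H3-3B and H2AZ1 measured 6.69, 6.53 and 1.4 kb in total, so that fewer than 1 peak each would correspond to that density.

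The intronic peaks of the macroH2A genes were low compared with the end sites. Pileups ranged from 5 to 22 reads in MACROH2A1 (median 8) and from 7 to 22 reads in MACROH2A2 (median 12), against 54 reads at either gene end. Intronic peaks of all coding genes were also low, with a median of 8 reads against 23 at the strongest sites of coding genes. The MACROH2A1 peak of 22 reads was followed by a stretch of A and had no motif; without it the highest intronic peak of MACROH2A1 had 10 reads and the median was 7. The 2 genes differed in the sequence at these peaks. A-rich sequence followed 9 of 10 intronic peaks in MACROH2A2 and 4 of 8 in MACROH2A1, and over the 97783 intronic peaks of all coding genes the share was 76.3%. A PAS motif without A-rich sequence was found at 4 of 8 intronic peaks in MACROH2A1 and at 1 of 10 in MACROH2A2, compared with 16.7% of all intronic peaks. At all 4 of the MACROH2A1 peaks and at the 1 MACROH2A2 peak the motif was AATAAA, 19 to 30 bp before the 3′ end. Over all intronic peaks, 8.41% had AATAAA within 40 bp of the 3′ end and no A-rich sequence after it. Of the 4 MACROH2A1 peaks, 2 had 5 reads each and a −log10 q of 4.81 and 3.86. With a −log10 q of at least 5, a motif without A-rich sequence was found at 2 of 5 peaks in MACROH2A1 and 1 of 9 in MACROH2A2. At least 10 A in a row lay within 30 bp of the 3′ end at 4 intronic peaks of MACROH2A2 and at 1 of MACROH2A1. No share over all intronic peaks is given beside these 2 counts. Whether these peaks arose from poly(A) tails or from priming on the A of introns was not tested.

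Sequences are given for the 4 MACROH2A1 intronic peaks with AATAAA and for the highest intronic peak of each gene, which ended at an A run, because they show both kinds of site.
MACROH2A1, 9 reads, chr5:135344671-135344700 (−): AATAAAacatactcctgttccactgtgcaa
MACROH2A1, 10 reads, chr5:135367311-135367340 (−): acacAATAAAacacattgtctacttactgt
MACROH2A1, 5 reads, chr5:135375788-135375817 (−): gaaagaaatacAATAAAcagattccttgtc
MACROH2A1, 5 reads, chr5:135388073-135388102 (−): cttttgtAATAAAacctttccctgtgccct
MACROH2A1, 22 reads, after the 3′ end, chr5:135351537-135351566 (−): AAAAAAAAAAAAAAAAAAAAAAAttaaacc
MACROH2A2, 22 reads, after the 3′ end, chr10:70081081-70081110 (+): AAAAAAAAAAAAgatgtccagaagagcaga
The first 4 lines end at the 3′ end of the peak and have the motif in capitals, and in the last 2 the A run of the genome is in capitals. The peak of 9 reads also lay over PITX1-AS1 and in the end window of one of its transcripts.

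**Figure D4:**
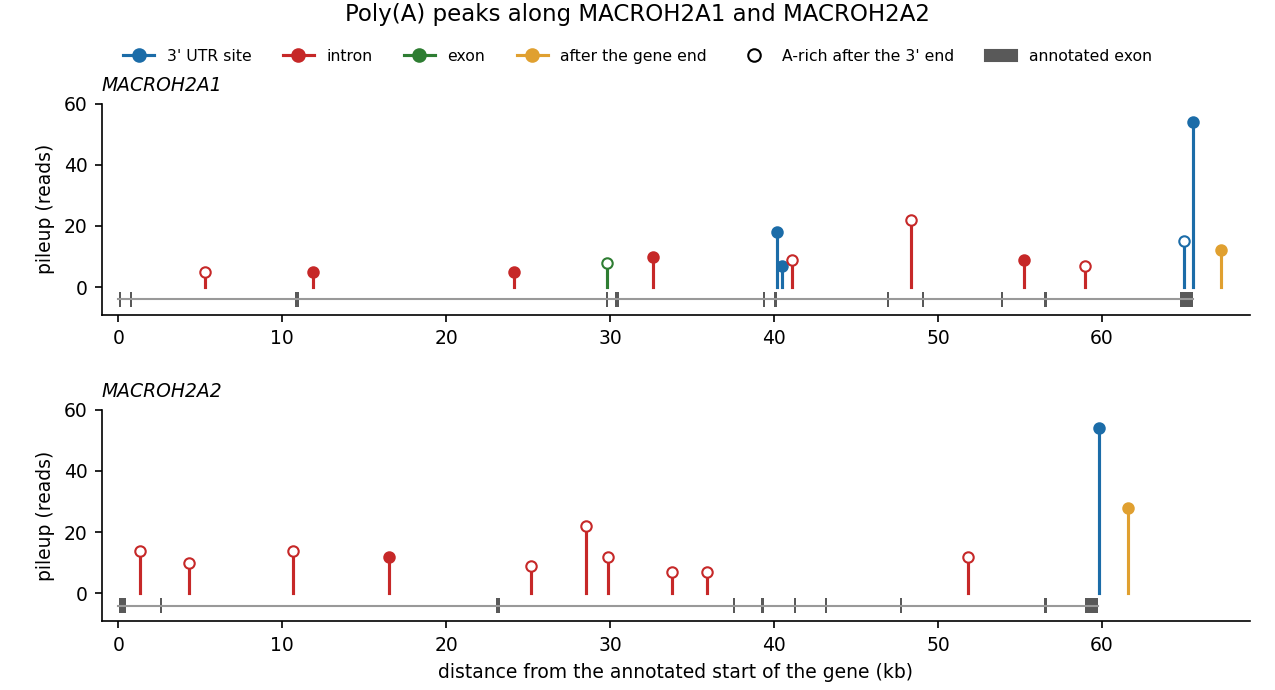
Peaks along MACROH2A1 and MACROH2A2 are drawn at the position of their 3′ end, as distance from the annotated gene start in kb (horizontal axis), with the pileup at the summit in reads (vertical axis); open circles mark peaks followed by A-rich sequence, and dark boxes are exons. Intronic peaks reach at most 22 reads in both genes (10 in MACROH2A1 without the peak at a long A run), the end sites reach 54 reads, and 9 of the 10 intronic peaks of MACROH2A2 are open circles.

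Peaks between 600 bp and 4 kb after the gene end were found at 3 of the 7 genes (42.9%), compared with 29.5% of coding genes with a site. They were the peaks of MACROH2A1 (12 reads, 1739 bp after the end, AATAAA 28 bp before the 3′ end), MACROH2A2 (28 reads) and H1-10 (13 reads), and the first 2 lay over a gene on the opposite strand. The next peak beyond 4 kb lay 4543 bp after H3-3B, and between 5959 bp (H2AZ2) and 305709 bp (MACROH2A1) after the other 6 genes.

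Other histone genes and the genes that deposit these variants were described in the same way. Among further variant histone genes, CENPA, the histone H3 of centromeres, had 2 sites, and H2AJ and H3-5 had 1 site each. Among 17 genes of the complexes and chaperones that place or exchange H3.3 or H2A.Z, all had a site, compared with 67.7% of coding genes. At least 2 sites were found in 7 of them (41.2%), compared with 59.5% of coding genes with a site. The most were found in UBN2 (7), a subunit of the HIRA complex, and in ANP32E and EP400 (4 each), an H2A.Z chaperone and a subunit of an H2A.Z-depositing complex. Of 69 replication-dependent histone genes, 35 (50.7%) had a 3′ UTR site, and 7 of these (20%) had at least 2. The shares of coding genes were the same 67.7% and 59.5%. A further 18 replication-dependent genes had no site but had a peak up to 4 kb after the gene end. Among 55 pseudogenes named after H3 or a member gene, 4 had a peak: H3P6, H3P43, H3P47 and H2AZ2P1. No share over all pseudogenes is given beside this count.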

How the data were processed

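Poly(A) 3′-seq (QuantSeq REV) was performed by the authors on 8 libraries. Each read begins where the poly(A) tail was added and runs upstream. Reads were trimmed with BBDuk, and those of at least 75 bp were mapped with STAR 2.5.1b to GRCh38, and a read that mapped to more than 1 place could still be kept. MACS2 2.1.1 called peaks on the merged reads, extended to 100 bp. According to its methods, the study then removed peaks with a genomic stretch of A and no PAS motif. The list used here still held such a peak, the MACROH2A1 intronic peak of 22 reads, and the counts include it. Without it, 40 of the 41 peaks of the 7 genes remained. Per the submitters' processing notes, deepTools 2.5.4 and SAMtools were also used. The deposited list gives for each peak the fold enrichment (a ratio), the −log10 p and the −log10 q. It has 0 strand columns and no values per library. The labels give 400 nM THZ531, whereas the methods of the study name a lower dose for these lines.

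Coordinates are 1-based on GRCh38, and 0 peaks passed the end of a chromosome. Genes were annotated with GENCODE 44 (basic transcripts, no readthrough), whereas the study used an older release. The 3′ end of a peak was read on the strand of the gene. The pileup and background were recovered from the fold and p by the formulas of MACS2, with a whole pileup for 100% of peaks (tolerance 0.001 on −log10 p). Recovery, motif search and the reading of 3′ UTR intervals were tested on simulated data, and the classification of peaks was not. Motifs were searched on the strand of the gene and, for comparison, from the other edge of the peak on the other strand, and motif matches may overlap. Sequences were read from the GRCh38 reference genome. Python 3 with numpy, pandas, scipy and statsmodels was used.

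No test was run, because the list has no replicates. Counts are set beside those of all protein-coding genes. Wilson intervals of shares and exact Poisson intervals of pileups (95%) cover counting error only, and the latter treat a pileup as a plain read count. Members, gene lists and alternatives were chosen with earlier results of these data known. All 7 members are named; some items of the list of further variant histone genes are not reported here, and other lists are given by counts, with the 3 deposition genes that have the most sites named. The 4 pseudogenes with a peak and H3P36 were named after their values were seen.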

Additional observations from a re-analysis of the deposited data

How the results depend on the processing

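No paired analysis was possible because the list pools all libraries and no result comes from a test. Of 28 alternative settings over the number of peaks, the number and spacing of 3′ UTR sites and the motif share, 27 stayed within 1.5 times the main count or within the Wilson interval of the share. These limits are wide for 16 sites, and a motif share of 50% (window of 40 bp) also lay within them. When the motif was restricted to AATAAA and ATTAAA, the share of sites with a motif was 25% in place of 68.8%. The number of 3′ UTR sites ranged from 12 (MANE Select transcripts alone) to 16, the number of genes with at least 2 sites was 3 or 4, and the median spacing ranged from 566 bp (between summits) to 644.5 bp. Of the 41 peaks, 35 had a −log10 q of at least 5, and 31 lay over no other gene. Searching the whole peak was added after seeing the data. Merged peaks hide cleavage positions closer than about a read length, and without values per library neither the spread between replicates nor an effect of THZ531 can be given.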
